A study of Mus musculus with 6 samples.

Results

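Inflammatory cytokine genes and the genes of NF-kB feedback were described in RNA of tumor endothelial cells (TECs) with and without endothelial Notch activation. The 10 genes were taken by name from the 23473 rows with RefSeq symbols, and all 10 had a row: the ligands Il1a, Il1b, Il6, Tnf, Lif and Osm, the receptor antagonist Il1rn, and the feedback genes Nfkbia, Nfkbiz and Tnfaip3. The TECs came from tumors of LLC (Lewis lung carcinoma, a mouse lung cancer cell line) that had been implanted in C57BL/6 mice of 8 weeks by the labels, with 3 NICeCA mice and 3 control (Ctrl) mice and 1 library per mouse. NICeCA mice carry Cdh5 cre ERT2, a tamoxifen-dependent Cre driven in cells that express the endothelial cadherin gene Cdh5, together with a Rosa26 transgene that releases the intracellular domain of Notch1 (Notch1 ICD) where Cre has acted. The labels give Ctrl mice as wild type, and whether they carried Cre or received tamoxifen was not given in the sources used here. All 6 tumors were digested with collagenase I and DNase I for 45 min at 37 °C, and TECs were captured on beads with an antibody to CD31 at a stated purity of over 90%.

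IL-1, TNF and related danger signals activate NF-kB, a family of transcription factors that inhibitors of the IkB family hold in the cytoplasm. Kinases that mark IkB for destruction free NF-kB, which turns on cytokine genes and, with them, the genes of its own brakes. In vessels these cytokines are known for making endothelial cells display adhesion molecules and draw in leukocytes, while macrophages and neutrophils are abundant sources of them.

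The values were RPKM (reads scaled to gene model length and library size), which allow levels of different genes to be set side by side. Library totals recovered from the values were 35303191 to 39823498 reads. Groups were compared with limma on log2(RPKM + 1) over the 12320 genes whose mean reached 1 RPKM, and a gene was called at an adjusted p under 0.05. Of these genes, 725 were called higher and 946 lower in NICeCA libraries, and the split depended on the scaling, with 1032 higher and 673 lower after trimmed mean scaling, 446 and 325 after quantile normalization, 590 and 206 with a trend on row length removed, and 683 and 1337 with limma voom. Notch1, whose intracellular part the transgene encodes, had 14.3, 8.19 and 13.8 RPKM in Ctrl and 12.3, 13.6 and 12.6 RPKM in NICeCA libraries and was not called (limma adjusted p = 0.71), while the Notch target Hey1 was called higher (log2 fold change 1.10, limma adjusted p = 0.041). Summed macrophage markers were above summed endothelial markers in all 6 libraries, beside the stated purity. Sums of RPKM over different genes do not measure shares of cells, so the purity itself was not tested.

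The start regions of the genes are shown first, because several of the genes are known targets of NF-kB and the printed letters show where a kB site lies in some of them. Promoter sequences (250 bases before to 50 after the start) from RefSeq, build GRCm38.p6, matched 8 of the 10 genes, all but Osm and Nfkbiz. In the 150 bases before the start printed here, 5′ to 3′ on the strand of the gene, capitals mark matches to the kB consensus in Nfkbia (chr12:55492648-55492797, minus strand), Tnfaip3 (chr10:19015411-19015560, minus strand, where the first run of capitals is AP-1) and Il6 (chr5:30012964-30013113, plus strand), to a TATA box and then AP-1 in Il1a (chr2:129309973-129310122, minus strand), and to a TATA box in Il1b (chr2:129371140-129371289, minus strand) and Tnf (chr17:35202008-35202157, minus strand).
Nfkbia: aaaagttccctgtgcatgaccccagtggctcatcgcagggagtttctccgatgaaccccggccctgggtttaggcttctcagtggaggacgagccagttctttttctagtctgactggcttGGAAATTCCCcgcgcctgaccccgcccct
Tnfaip3: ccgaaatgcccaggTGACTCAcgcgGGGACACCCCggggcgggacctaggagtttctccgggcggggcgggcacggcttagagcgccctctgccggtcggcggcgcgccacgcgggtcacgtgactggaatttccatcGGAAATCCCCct
Il6: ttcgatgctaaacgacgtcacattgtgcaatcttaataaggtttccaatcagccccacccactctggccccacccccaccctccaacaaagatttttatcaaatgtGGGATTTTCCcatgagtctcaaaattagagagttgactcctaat
Il1a: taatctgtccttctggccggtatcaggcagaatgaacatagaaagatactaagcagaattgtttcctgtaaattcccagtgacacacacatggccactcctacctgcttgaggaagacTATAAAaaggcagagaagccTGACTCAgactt
Il1b: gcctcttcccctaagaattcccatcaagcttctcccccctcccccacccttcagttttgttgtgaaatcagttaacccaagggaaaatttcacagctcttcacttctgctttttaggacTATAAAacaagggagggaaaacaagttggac
Tnf: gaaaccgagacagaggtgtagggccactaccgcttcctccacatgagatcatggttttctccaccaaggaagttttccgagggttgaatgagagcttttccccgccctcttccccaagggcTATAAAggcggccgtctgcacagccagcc

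The 8 genes had 11 promoters in all, as Il1rn and Tnfaip3 have further starts. The kB consensus was found in 4 of the 11 (of Il6, Lif, Nfkbia and Tnfaip3) and in 11.2% of 32851 promoters of the same length, both strands searched. The match began 29 bases before the start in Nfkbia, 44 in Il6, 178 in Lif, and 125 and 12 in Tnfaip3. AP-1 (TGANTCA) was found in 5 of the 11 (of Il1a, Il1rn, Il6, Lif and Tnfaip3) and in 7.81% of promoters, and the letters of a TATA box (TATAAA) in 6 of the 11 and in 13.6% of promoters. In Il1a, Il1b and Tnf they began 32, 31 and 29 bases before the start. In Tnfaip3 they lay 225 bases before it, and in Nfkbia and at a further start of Il1rn they lay on the other strand, after the start. No match of one motif overlapped a match of another in these 8 genes. These matches describe letters only, and no binding was measured.

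In the CD31 fractions of NICeCA tumors the level of all 10 genes was higher on average, and 8 of 10 passed the test (limma, adjusted p under 0.05), beside 5.88% of all tested genes called higher. The 7 genes of secreted ligands and the antagonist all rose, with log2 fold changes from 0.88 to 2.85 and a median of 1.73. Of the 3 feedback genes only Nfkbia was called, and the log2 fold changes of the 3 were 0.62 to 1.04 with a median of 0.94. In 9 of 10 genes every NICeCA library lay above every Ctrl library, as it did in 16.5% of tested genes. The median log2 fold change was 1.51 over the 10 genes and -0.05 over all tested genes, and 121 tested genes had a larger one than the 10 genes' median. The calls rested on few mice, as 2 of the 10 genes were called without NICeCA replicate 1 (Il1a and Tnf), 5 without Ctrl replicate 1, and 0 without NICeCA replicate 2, where 9 had an unadjusted p under 0.05 in limma. Of all 12320 tested genes, 105, 1035 and 27 were called in these fits, in the same order. With all 6 libraries, 4377 of the 12320 tested genes had an unadjusted p under 0.05 in limma. Every one of the 10 log2 fold changes stayed above 0 with any 1 library left out. For the 9 genes whose groups did not overlap this sign was fixed in advance, so only that of Nfkbiz could have changed.

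**Figure D1:**
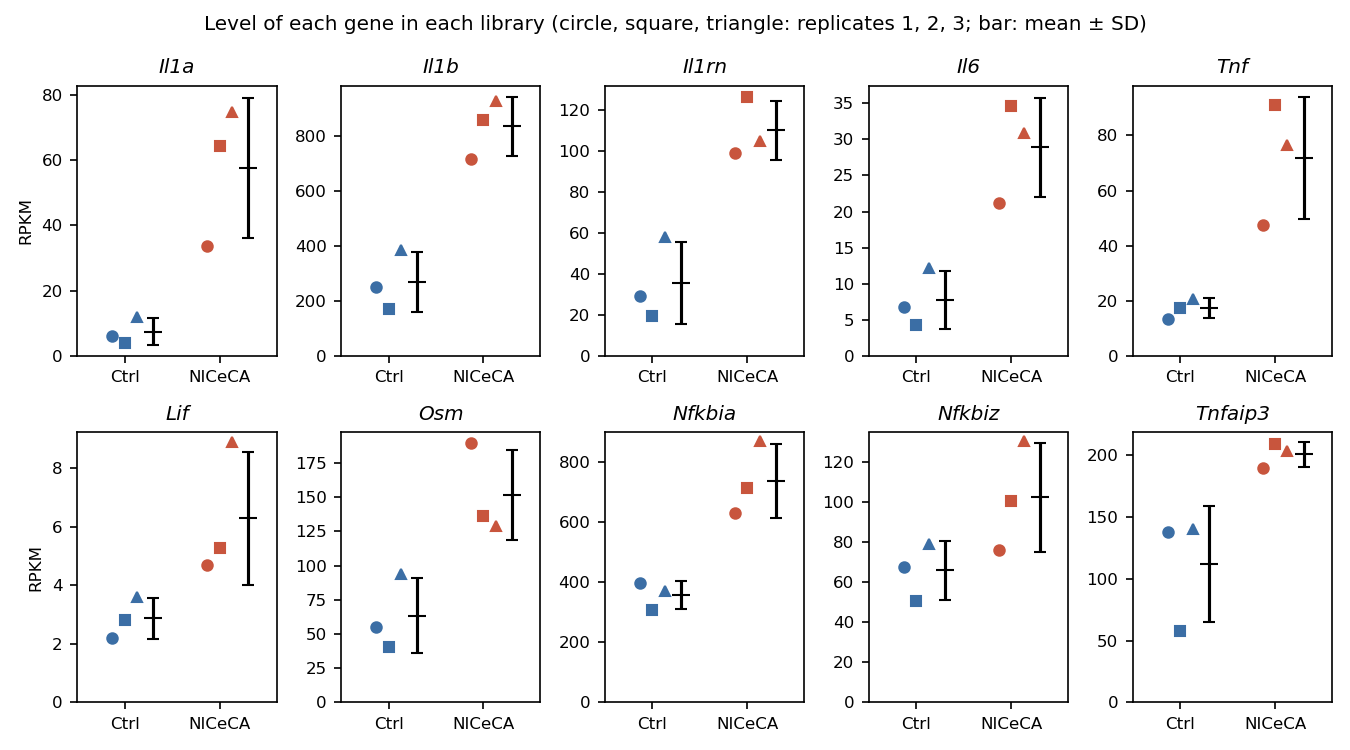
RPKM of each of the 10 genes in every library, with Ctrl in blue and NICeCA in red, replicates 1, 2 and 3 as circle, square and triangle, and the mean ± SD as a black bar (n = 3 mice each). The groups are apart in every panel except Nfkbiz, where NICeCA replicate 1 (76.2 RPKM) lies below Ctrl replicate 3 (79.2 RPKM).

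Il1a (chromosome 2, 129299610 to 129309972, GRCm38, minus strand) encodes IL-1 alpha, an alarm cytokine that dying cells release, and it differed most of the 10 genes. Its level was 6.15, 3.93 and 11.9 RPKM in Ctrl libraries and 33.6, 64.2 and 74.7 RPKM in NICeCA libraries. The lowest NICeCA library was thus 2.82 times the highest Ctrl library. The means were 7.34 ± 4.13 and 57.5 ± 21.3 RPKM (SD, n = 3 mice each), which gave a log2 fold change of 2.85 ± 0.39 (SE, 95% interval 1.94 to 3.76, limma adjusted p = 0.012), and 14 tested genes had a larger log2 fold change. Without NICeCA replicate 2 its adjusted p was 0.058.

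Il1b (chromosome 2, 129364580 to 129371120, minus strand) encodes IL-1 beta, which is made as a precursor and cut by caspase-1. It was one of the most abundant transcripts, with 252, 170 and 386 RPKM in Ctrl and 718, 859 and 930 RPKM in NICeCA libraries. Among the 23473 RefSeq rows ranked by RPKM it stood between places 158 and 294 in Ctrl and between places 54 and 106 in NICeCA libraries. The means of 269 ± 109 and 835 ± 108 RPKM (SD, n = 3) differed by a log2 fold change of 1.70 ± 0.28 (SE, limma adjusted p = 0.020).

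Il1rn (chromosome 2, 24336860 to 24351491, plus strand) encodes the antagonist that occupies the IL-1 receptor without signaling. Its level was 29.1, 19.6 and 58.2 RPKM in Ctrl and 98.9, 126 and 105 RPKM in NICeCA libraries, so the ranges were apart although Ctrl replicate 3 stood well above the other Ctrl libraries. The log2 fold change was 1.73 ± 0.34 (SE, limma adjusted p = 0.028). Per length, Il1rn transcripts were 0.116, 0.115 and 0.151 of those of Il1b in Ctrl and 0.138, 0.147 and 0.113 in NICeCA libraries. The mean of the antagonist rose 3.08-fold and that of the agonist 3.10-fold, and the log2 of this ratio differed by 0.06 between groups (n = 3 each, p = 1.0 in a two-sided exact permutation test). The ratio of Il1b to Il1a was 41.0, 43.2 and 32.3 in Ctrl and 21.3, 13.4 and 12.4 in NICeCA libraries, with no overlap. That difference of -1.34 on the log2 scale had an exact permutation p of 0.1, the smallest that 3 mice against 3 allow, and an adjusted p of 0.2 over the 2 ratios.

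Tnf (chromosome 17, 35199391 to 35201996, minus strand), the founding ligand of its family, varied least across Ctrl mice of the ligand and antagonist genes (highest over lowest library 1.53). It had 13.6, 17.4 and 20.8 RPKM in Ctrl and 47.6, 91.1 and 76.5 RPKM in NICeCA libraries. Its means of 17.3 ± 3.62 and 71.7 ± 22.2 RPKM (SD, n = 3) gave a log2 fold change of 1.96 ± 0.25 (SE, 95% interval 1.38 to 2.55, limma adjusted p = 0.011). As with Il1a, its call was lost in 1 of 16 alternatives, without NICeCA replicate 2 (adjusted p = 0.0504).

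Il6, Lif and Osm encode cytokines that signal through gp130. Il6 (chromosome 5, 30013161 to 30019968, plus strand), a driver of acute phase responses, had 6.74, 4.34 and 12.1 RPKM in Ctrl and 21.2, 34.6 and 30.9 RPKM in NICeCA libraries. Its groups did not overlap, and its log2 fold change was 1.85 ± 0.32 (SE, 95% interval 1.10 to 2.59, limma adjusted p = 0.021). Osm (chromosome 11, 4236785 to 4241026, plus strand), which encodes oncostatin M, a product mainly of myeloid cells, had 55.3, 40.6 and 93.9 RPKM in Ctrl and 189.5, 136 and 129 RPKM in NICeCA libraries. It was the only one of the 10 genes whose highest NICeCA library was replicate 1. Its log2 fold change was 1.31 ± 0.30 (SE, limma adjusted p = 0.036), and its call was lost with the replicate number as a block, with no filter, with quantile normalization and in 4 of 6 fits with 1 library left out.

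Lif (chromosome 11, 4257568 to 4272514, plus strand), which lies 16542 bases from Osm and encodes leukemia inhibitory factor, was the least abundant of the 10 genes in every library. It had 2.21, 2.83 and 3.59 RPKM in Ctrl and 4.71, 5.28 and 8.89 RPKM in NICeCA libraries, from 348 to 1338 reads. All 3 NICeCA libraries were above the Ctrl range, with NICeCA replicate 3 apart from the other two. The log2 fold change of 0.88 ± 0.23 (SE, 95% interval 0.35 to 1.42) passed the threshold narrowly (limma adjusted p = 0.044), and the call was lost with no filter and in 5 of 6 fits with 1 library left out, all but the one without Ctrl replicate 3.

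Of the feedback genes, Nfkbia (chromosome 12, 55489409 to 55492647, minus strand) encodes IkB alpha, the inhibitor that returns NF-kB to the cytoplasm. Its level was 397, 307 and 371 RPKM in Ctrl and 630, 714 and 872 RPKM in NICeCA libraries. It ranked between places 67 and 190 of all RefSeq rows in the 6 libraries. The means of 358 ± 46.5 and 738 ± 123 RPKM (SD, n = 3) gave a log2 fold change of 1.04 with the smallest standard error of the 10 genes (0.17, 95% interval 0.64 to 1.43, limma adjusted p = 0.020).

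Tnfaip3 (chromosome 10, 19000910 to 19015410, minus strand) encodes A20, a ubiquitin-editing enzyme that ends TNF and IL-1 signaling. It had 137, 57.9 and 140.5 RPKM in Ctrl and 189, 209 and 203 RPKM in NICeCA libraries. The groups did not overlap, and Ctrl replicate 2 was far below the other Ctrl libraries. The log2 fold change was 0.94, with a standard error of 0.32, and was not called (limma adjusted p = 0.080, exact permutation p = 0.1). Without Ctrl replicate 2 it was 0.52 and still not called (limma adjusted p = 0.079). With all 6 libraries, each of the called genes also had an exact permutation p of 0.1, the smallest that 3 mice against 3 allow. Nfkbiz (chromosome 16, 55811377 to 55838641, minus strand) encodes IkB zeta, a nuclear IkB protein needed for part of the NF-kB targets, Il6 among them. It had 67.8, 50.4 and 79.2 RPKM in Ctrl and 76.2, 100.2 and 131 RPKM in NICeCA libraries, and these ranges overlapped. Its log2 fold change was 0.62 ± 0.23 (SE, 95% interval 0.08 to 1.16, limma adjusted p = 0.105, exact permutation p = 0.2). Neither gene was called in any of 16 alternatives, in which the lowest adjusted p was 0.063 for Tnfaip3 and 0.069 for Nfkbiz.

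**Figure D2:**
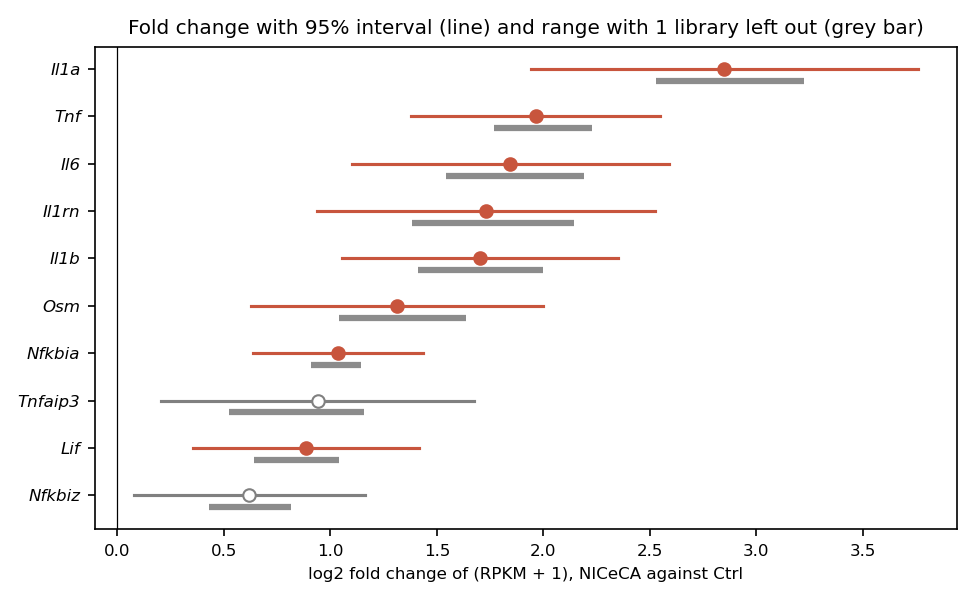
Log2 fold change of each gene (point, filled where called) with its 95% interval (line) and the range over the fits that left out 1 library (grey bar). Il1a is at 2.85 and Nfkbiz at 0.62, and all intervals and grey bars lie above 0.

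The order of the genes by level was nearly the same in all libraries. Il1b and Nfkbia held the first 2 places everywhere, Tnf was 7th and Lif 10th. One neighboring pair changed places between groups, since Il6 was above Il1a in all 3 Ctrl libraries and below it in all 3 NICeCA libraries. Within a group the genes tended to move together from library to library. Ctrl replicate 2 was the lowest Ctrl library for 8 genes (all but Tnf and Lif) and Ctrl replicate 3 the highest for 9 (all but Nfkbia), and NICeCA replicate 1 was the lowest NICeCA library for 9 (all but Osm). Reads on the opposite strand could add to 3 of the genes, because Gm14023 overlaps Il1a, Gm14047 overlaps Il1b and Mir1198 overlaps Nfkbia, and the use of strand in counting was not given in the sources used here. Gm14023 went from 2.00 to 6.77 RPKM in Ctrl to 16.1 to 37.9 RPKM in NICeCA libraries, below Il1a in each, and Gm14047 stayed at or under 6.89 RPKM. Mir1198 had 79.0 to 118 RPKM in Ctrl and 188 to 215 RPKM in NICeCA libraries.

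**Figure D3:**
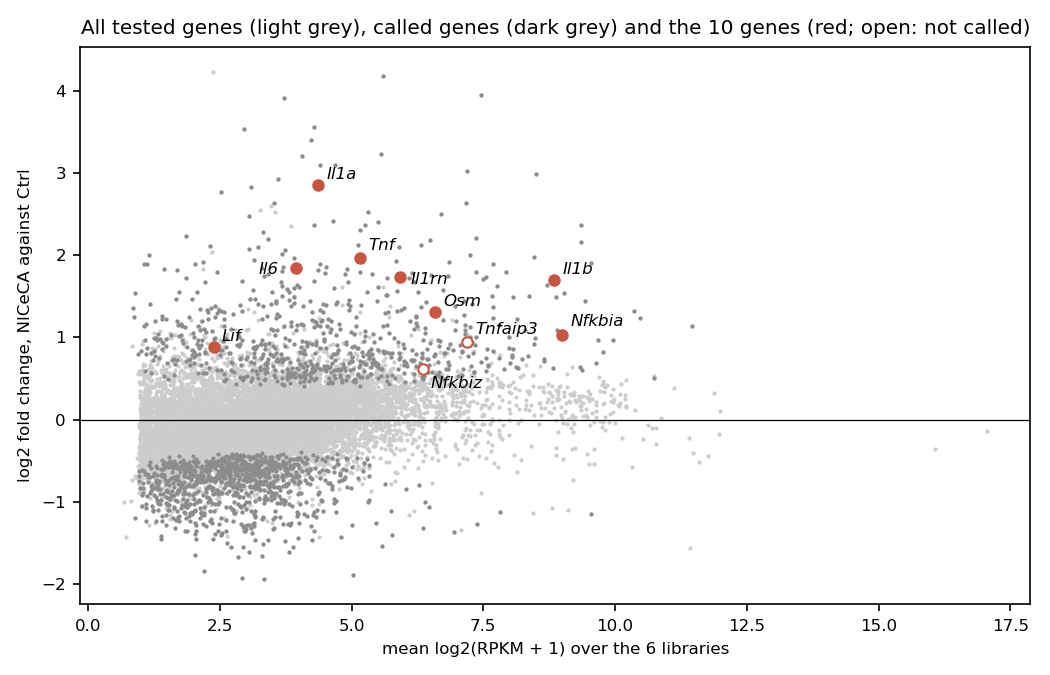
Mean log2(RPKM + 1) over the 6 libraries (horizontal) against the log2 fold change (vertical) for 12320 tested genes in light grey, called genes in dark grey and the 10 genes in red, open where not called. The 10 genes span the range from Lif at a few RPKM to Nfkbia and Il1b, the most abundant, all above the line at 0.

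For the receptors of these ligands, of 10 receptor genes tested, 1 was called higher and 1 lower, with a median log2 fold change of 0.12. The decoy receptor gene Il1r2, whose product binds IL-1 without signaling, rose from 8.96, 7.77 and 14.1 RPKM to 37.3, 33.5 and 50.4 RPKM, a log2 fold change of 1.90 ± 0.23 (SE, limma adjusted p = 0.011) that was called in all 16 alternatives. Sigirr, an inhibitory member of the IL-1 receptor family, fell from 13.7, 16.0 and 11.7 RPKM to 6.51, 6.63 and 9.93 RPKM (log2 fold change -0.78, limma adjusted p = 0.038), a call lost in 8 of 16 alternatives. The signaling receptor gene Il1r1 had 12.2, 20.2 and 16.9 RPKM in Ctrl and 7.52, 8.96 and 13.0 RPKM in NICeCA libraries and was not called (limma adjusted p = 0.078). Its partner Il1rap had 2.40 to 4.21 RPKM in Ctrl and 3.97 to 5.59 RPKM in NICeCA libraries. Il6ra had 13.8 to 20.1 RPKM in Ctrl and 9.43 to 13.3 RPKM in NICeCA libraries, without overlap and not called (limma adjusted p = 0.061). The log2 fold changes of the shared subunit Il6st, of Lifr, of Osmr, of Tnfrsf1a and of Tnfrsf1b lay between 0.03 and 0.22, each smaller than 2 standard errors. In Ctrl against NICeCA libraries Il6st had 30.0 to 41.4 against 32.6 to 41.1 RPKM, and Lifr 4.56 to 9.08 against 5.71 to 7.77 RPKM. Osmr had 4.07 to 5.07 against 4.29 to 5.79 RPKM. Tnfrsf1a had 44.2 to 58.5 against 53.6 to 60.7 RPKM, and Tnfrsf1b 32.9 to 54.2 against 46.0 to 52.9 RPKM.

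Further along the pathway, 0 of 15 genes of NF-kB subunits, other IkB proteins and their kinases were called by limma or by limma voom, and 2 had an unadjusted p under 0.05, with a median log2 fold change of -0.09. Of 22 adaptor and other feedback genes, 2 were called higher and 1 lower, with a median of 0.18. Ier3, an immediate early survival gene, rose from 238, 195 and 284 RPKM to 769, 757 and 692 RPKM (log2 fold change 1.64, limma adjusted p = 0.0088) and was called in all 16 alternatives. Gadd45b, a stress sensor induced by NF-kB, had a log2 fold change of 1.11 (limma adjusted p = 0.018), and Otud7b, a deubiquitinase, fell by 0.61 on the log2 scale (limma adjusted p = 0.048), a call lost in 11 of 16 alternatives.

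Of 13 genes of gp130, STAT3 and SOCS signaling, 2 were called higher and 1 lower, with a median log2 fold change of 0.06. Socs3, a STAT3-induced brake on gp130, rose from 167, 132 and 157 RPKM to 239, 210 and 236 RPKM (log2 fold change 0.59, limma adjusted p = 0.038), and the kinase gene Pim1, also a STAT3 target, had a log2 fold change of 0.85 (limma adjusted p = 0.039). Pias3, an inhibitor of STAT3, fell by 0.82 on the log2 scale (limma adjusted p = 0.040). These calls were lost in 7 (Socs3), 9 (Pim1) and 8 (Pias3) of 16 alternatives, among them the replicate block, no filter and quantile normalization for each. Among 11 genes of the inflammasome and of cytokine processing, 2 were called higher and 1 lower, with a median of 0.38. Nlrp3, the sensor whose complex activates caspase-1, had 17.9, 11.8 and 26.5 RPKM in Ctrl and 42.3, 50.6 and 59.7 RPKM in NICeCA libraries (log2 fold change 1.45, limma adjusted p = 0.024). Its adaptor gene Pycard had a log2 fold change of 0.94 (limma adjusted p = 0.034), and Nlrp1b one of -0.78 (limma adjusted p = 0.049). The call was lost in 3 of 16 alternatives for Nlrp3, in 6 of 16 for Pycard and in 11 of 15 for Nlrp1b.

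Of 18 other cytokine genes, 13 were abundant enough to test, 5 were called higher and none lower, and the median log2 fold change was 0.52. Csf3, which encodes the neutrophil growth factor G-CSF, had 0.658, 1.03 and 1.17 RPKM in Ctrl and 4.10, 4.63 and 5.36 RPKM in NICeCA libraries (log2 fold change 1.55, limma adjusted p = 0.0088). Il23a, a subunit of IL-23, rose from under 1 RPKM in each Ctrl library to 2.26, 5.19 and 5.73 RPKM (log2 fold change 1.83, limma adjusted p = 0.016). The others called were the anti-inflammatory Il10 (log2 fold change 1.00, limma adjusted p = 0.012), Il15 (0.91, limma adjusted p = 0.043) and the IL-1 family member Il36g (1.80, limma adjusted p = 0.045). The calls were lost in 8 of 16 alternatives for Il15 and in 9 of 16 for Il36g, limma voom among them, against none of 15 for Csf3, 1 of 15 for Il23a and 2 of 15 for Il10. At log2(RPKM + 1) the changes of such low genes are understated.

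**Figure D4:**
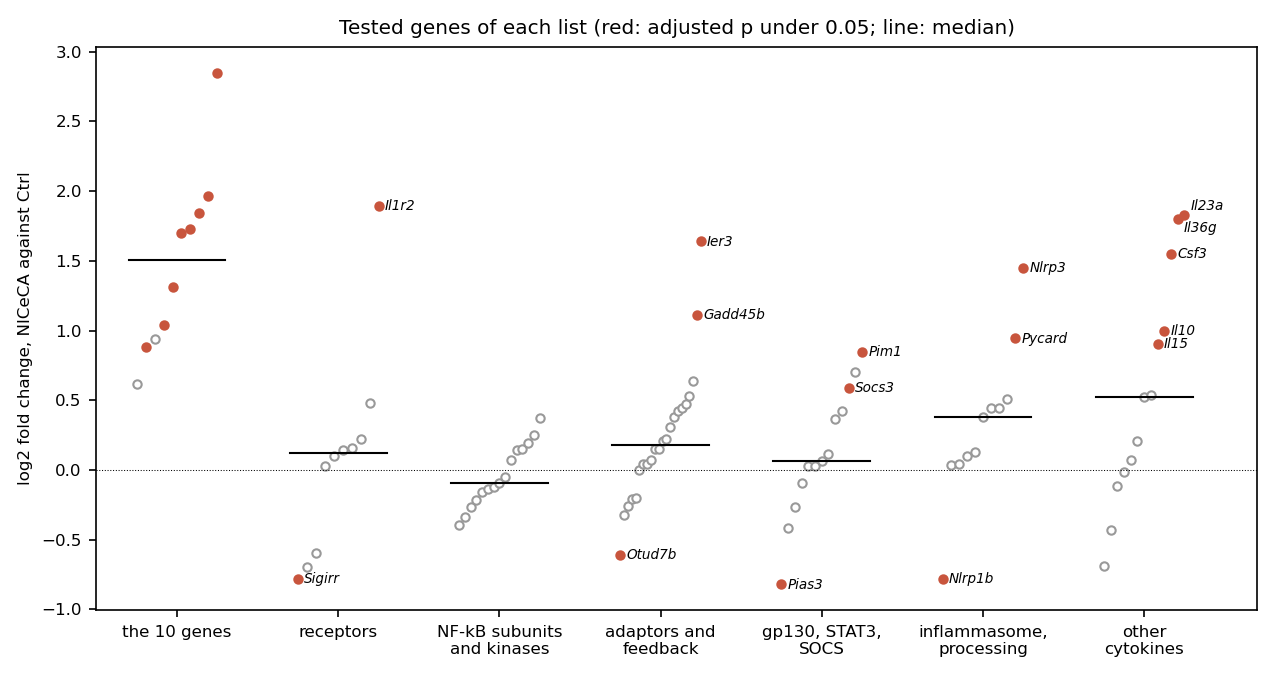
Log2 fold change (vertical) of each tested gene in the 10 genes and in 6 lists around them, red where called and with a black line at the median. The median of the 10 genes is 1.51 and those of the lists lie between -0.09 and 0.52, with Il1r2, Ier3, Il23a and Il36g the highest of their lists.

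Markers of some other cell types also differed between the groups, while those of others had no call. In bulk RNA, more cells of a type and more RNA per cell cannot be told apart. Of the neutrophil markers, 11 of 12 had a row, 9 were tested and 8 were called higher (median log2 fold change 2.21), and their summed level was 119 to 278 RPKM in Ctrl and 643 to 1747 RPKM in NICeCA libraries. S100a8, a defining gene, had 29.7, 65.3 and 93.9 RPKM in Ctrl and 196, 354 and 660 RPKM in NICeCA libraries, and S100a9 had 34.4, 105 and 118 against 194, 307 and 742 RPKM. The call was lost in 5 of 16 alternatives for S100a8 and in 8 of 16 for S100a9. With quantile normalization 6 neutrophil markers were called higher. Among Ctrl libraries 9 of the 11 neutrophil markers were lowest in replicate 1 and 2 (Csf3r and Retnlg) in replicate 2, where 8 of the 10 cytokine and feedback genes were lowest. In NICeCA replicate 3 the neutrophil sum was highest, as were Il1a, Il1b, Lif, Nfkbia and Nfkbiz, while Osm was lowest there. The part of neutrophil RNA in the result was not tested.

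The 12 macrophage genes summed to 7314 to 10289 RPKM in Ctrl and 5762 to 9949 RPKM in NICeCA libraries, and the 12 endothelial genes to 223 to 577 and 489 to 637 RPKM. Of the macrophage genes 4 were called higher and 0 lower (median log2 fold change 0.29, limma, where 6 had an unadjusted p under 0.05, and limma voom also called 4). Their defining genes Csf1r (143, 115 and 159 RPKM in Ctrl, 143, 106 and 91.6 RPKM in NICeCA libraries) and Adgre1 were not called. The 4 called were Msr1, Cd14, Itgam and Cd68, with log2 fold changes of 1.11, 0.97, 0.77 and 0.75. These calls were lost in 5, 4, 7 and 5 of 16 alternatives, in the same order, and quantile normalization called 2 macrophage genes. Lyz2 was the most abundant of the list, and the other 11 genes summed to 3634 to 4735 RPKM in Ctrl and 3151 to 5456 RPKM in NICeCA libraries. The summed macrophage level was lowest in NICeCA replicate 3, where 5 of the 10 genes were highest. All 12 endothelial genes had a log2 fold change above 0 (0.22 to 1.25), with a median of 0.66. In limma 1 of them, Flt1, was called higher, a call lost in 8 of 16 alternatives, and 4 had an unadjusted p under 0.05. Ctrl replicate 2, the lowest Ctrl library for most of the 10 genes, also had the least Pecam1 (47.5 RPKM, against 82.6 to 153.6 RPKM elsewhere) and Cdh5 (30.9 RPKM, against 43.3 to 96.5 RPKM). This was not particular to endothelial genes. Ctrl replicate 2 was the lowest Ctrl library for 12 of 12 endothelial, 8 of 12 macrophage, 6 of 7 T and NK cell and 10 of 13 immediate early and heat shock genes. It was also lowest for 5 of 6 mast cell, 4 of 6 dendritic cell, 4 of 6 pericyte and 4 of 6 platelet genes. Fewer genes were lowest there among neutrophil (2 of 11), fibroblast (2 of 8) and tumor epithelial genes (1 of 5). The cell type in which each cytokine was transcribed was not measured, and the part of macrophage RNA was not tested.

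Of the remaining lists, platelet markers summed to 107 to 177 RPKM in Ctrl and 895 to 1131 RPKM in NICeCA libraries, nearly all of it Pf4, the 1 gene of 3 tested that was called, and the other 5 summed to 4.13 to 4.64 against 3.28 to 5.83 RPKM. Pericyte markers had 2 of 5 called higher (25.3 to 40.6 against 55.4 to 99.6 RPKM), and fibroblast markers 1 higher and 2 lower of 7 (71.6 to 118 against 64.2 to 115 RPKM). With quantile normalization 0 pericyte markers were called, and of the fibroblast markers 1 was called higher and 0 lower. Dendritic cell markers (18.4 to 48.7 against 32.7 to 35.9 RPKM), mast cell markers (22.3 to 145 against 63.8 to 77.4 RPKM) and T and NK cell markers (24.4 to 43.2 against 23.6 to 36.2 RPKM) had 0 calls among 5, 5 and 7 tested genes with limma and with limma voom, and 0, 0 and 1 unadjusted p under 0.05. Of the tumor epithelial markers 1 of 2 tested was called lower (6.71 to 12.3 against 6.13 to 8.57 RPKM). Immediate early and heat shock genes, which cell isolation can induce, had 4 of 13 called higher and 0 lower, with a median of 0.52 and sums of 2475 to 3415 RPKM in Ctrl and 3981 to 4776 RPKM in NICeCA libraries. Of these, Fos had 533, 312 and 420 RPKM in Ctrl and 644, 502 and 458 RPKM in NICeCA libraries and was not called, and Fosb had a log2 fold change of 0.00. The 4 called were Hspa1a, Hspa1b, Jun and Atf3, with log2 fold changes of 1.15, 0.81, 0.70 and 0.70. These calls were lost in 2, 10, 5 and 5 of 16 alternatives, in the same order. With quantile normalization 1 gene of this list was called, and the median was 0.24. In 9 of the 13 genes every NICeCA library lay above every Ctrl library, as it did in 16.5% of tested genes. No marker with a row was at 0 in all libraries. The part of these cell types and of isolation stress in the levels of the cytokine genes was not tested.

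**Figure D5:**
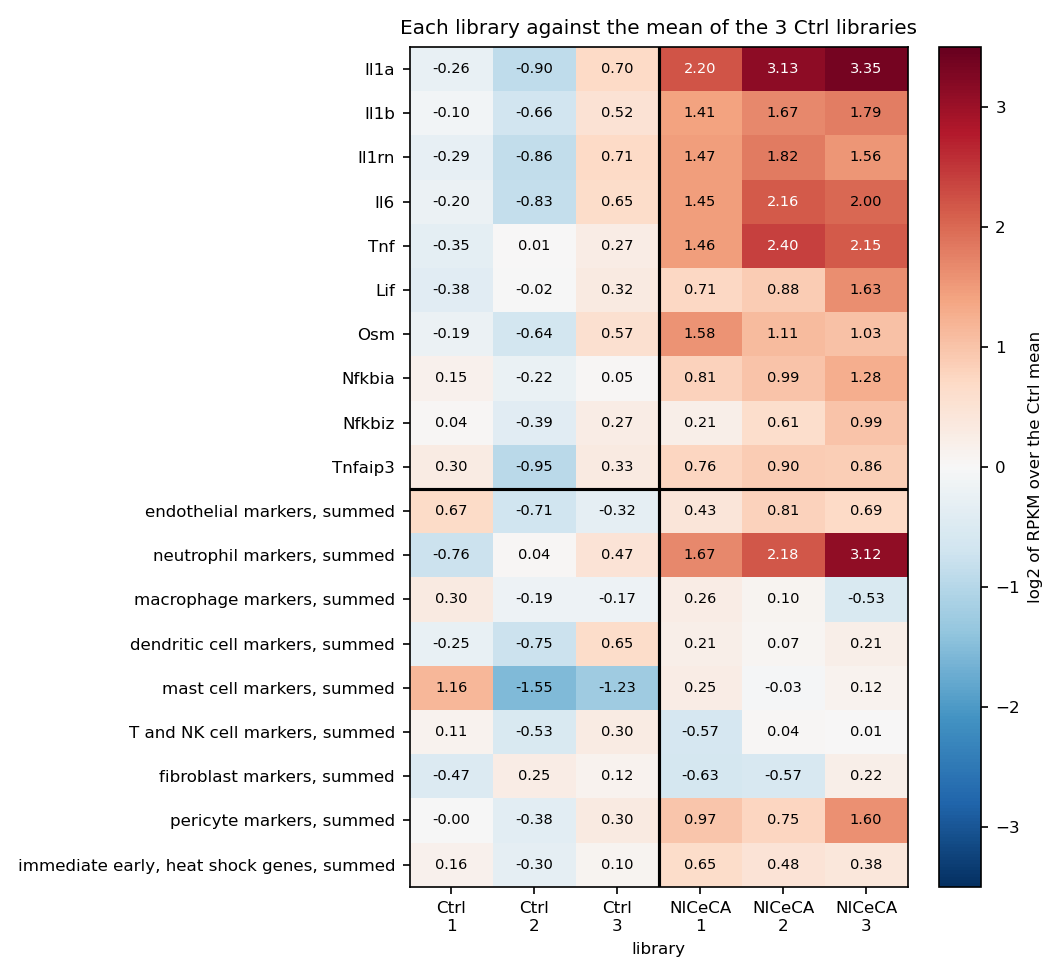
Log2 of the RPKM of each gene, or of the summed RPKM of each marker list, over the mean of the 3 Ctrl libraries, with libraries in columns and red for higher. Il1a reaches 3.35 and the neutrophil sum 3.12 in NICeCA replicate 3, where the macrophage sum is at -0.53.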

How the data were processed

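TECs of LLC tumors from 3 NICeCA and 3 Ctrl mice were measured by bulk RNA-seq after depletion of ribosomal RNA. The authors deposited 1 RPKM value per library and row (reads over gene model length and library total), with replicates kept apart. The submitters' processing notes name TopHat2 and mm9, but of 21665 RefSeq rows with a known symbol 99.28% overlapped that gene in GRCm38, so positions are given as GRCm38. The counting tool and its use of strand were not given in the sources used here. Whole reads were recovered from RPKM and row length (100% of low values within 0.05 of a whole read). Groups and replicate numbers came from the sample titles.

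log2(RPKM + 1) of RefSeq rows with a mean of at least 1 RPKM was compared with limma 3.58.1 in R 4.3.3 (lmFit and eBayes with the mean-variance trend, two-sided, Benjamini-Hochberg over all tested genes). Single values were compared with an exact permutation test in Python 3.11.15 (two-sided, 20 assignments, smallest p 0.1). The fitting step was tested on simulated data. Alternatives were the replicate number as a block, no filter, a minimum mean of 5 RPKM, 0.1 as pseudocount, a trimmed mean and quantile scaling, no variance trend, limma voom on the recovered reads, 33353 FANTOM3 rows included, each library left out, and, chosen after seeing the data, a trend on row length removed by lowess.

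The 10 genes and all lists were chosen with earlier results of these data known. All 10 genes and the 10 receptor genes were named with levels, and of other pathway lists the called genes (at most 6). Of marker lists the first 2 genes were to be named, here S100a8, S100a9, Csf1r, Adgre1, Pecam1, Cdh5, Fos and Fosb. For the platelet list only the first, Pf4, was named, and for the remaining marker lists neither was. Hey1, Notch1, the other named marker genes and the overlapping rows were named outside this rule. These and Pf4 were named after their values were seen. Adgre1 and Il36g were listed as Emr1 and Il1f9, and Ly6g and Trac were not analysed here. P-values reflect the spread between these mice only.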

Additional observations from a re-analysis of the deposited data

How the results depend on the processing

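All 159 log2 fold changes of the 10 genes over the alternatives were above 0, and 29 calls were lost and 0 gained. The replicate block, no filter, the minimum of 5 RPKM, no variance trend and the FANTOM3 rows leave a log2 fold change as it was. Leaving out 1 library cannot reverse it where the groups do not overlap. Many of the 159 signs were thus fixed in advance. The number of the 10 genes called fell from 8 to 3 with no filter (Il1a, Il1b and Tnf), where 22072 genes were tested, to 5 with quantile normalization, and lay between 0 and 8 with 1 library left out. With the replicate block it was 7 (Osm lost), and 536 genes were called in all (327 higher, 209 lower). The paper speaks of 3 pairs of mice, and which libraries formed a pair was not given in the sources used here. Over all tested genes the replicate numbers gave no sign of pairing. Deviations from the group means correlated at 0.122, -0.343 and -0.178 between same-numbered libraries, and not every library correlated best with its own number. With the block the standard error was smaller for all of the 10 genes (Il1a 0.28, against 0.39) but Nfkbia (0.20, against 0.17). Of all tested genes, 365 were called with no filter (260 higher, 105 lower), 771 with quantile normalization (446 and 325), 3211 with FANTOM3 rows (2185 lower) and 796 with the length trend removed (206 lower), and 579 were called lower at a mean of at least 5 RPKM, where Lif fell under the filter and had no value. With 1 library left out, the counts were 27 to 1661 in all, 26 to 913 higher and 1 to 832 lower. Such fits hold fewer mice, and the cause of the other losses was not tested. The 8 calls held with a pseudocount of 0.1, trimmed mean scaling, no variance trend, limma voom, FANTOM3 rows and the length trend removed. The median log2 fold change of the receptor list was 0.12 but -0.03 with quantile normalization, and that of the gp130 list 0.06 and -0.04. With 3 mice a group, the 95% interval of Nfkbiz ran from 0.08 to 1.16 on the log2 scale.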
